A study of Mus musculus with 2 samples.

Results

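The 10 genes described here encode enzymes that carry fatty acids into mitochondria and oxidise them, butyrate among them. They were picked as a named list of the pathway, with no threshold on a measured value but with earlier results of these data known: Cpt1a, Acadvl, Acadl, Acadm, Acads, Echs1, Hadh, Hadha, Hadhb and Acat1, out of 31053 genes in the count tables. RNA was read cell by cell in the mediastinal lymph nodes, which drain the airways, of WT C57/B6J mice aged 5 to 13 weeks with ovalbumin (OVA)-induced asthma. The mice had been given 50 µg OVA on days 0 and 7 and were challenged on days 14 to 16, and the nodes were taken on day 17. The cells of 4 mice were pooled in 1 library without butyrate (labelled OVA), and those of 4 mice in 1 library with butyrate (labelled C4). Both groups had asthma, and the labels give neither the dose nor the route of butyrate for these mice.

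Long-chain fatty acids enter mitochondria as carnitine esters, which Cpt1a makes, whereas butyrate crosses without carnitine and is activated inside. Each round of oxidation then runs through an acyl-CoA dehydrogenase (Acadvl for very long, Acadl for long, Acadm for medium and Acads for short chains), a hydratase, a hydroxyacyl-CoA dehydrogenase and a thiolase. For short chains these last steps are taken by Echs1, Hadh and Acat1, so that Acads, Echs1, Hadh and Acat1 form the route from butyryl-CoA to acetyl-CoA. For long chains they are taken by the trifunctional protein, whose subunits are Hadha and Hadhb. The pathway is known for fuelling the colon epithelium with butyrate, and in T cells it has been studied mostly in memory and regulatory cells.

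The tables held 9681 cells without and 8932 cells with butyrate, with medians of 5140 and 5651 UMIs (unique molecular identifiers, each standing for 1 captured RNA molecule). After removal of poor cells and likely doublets, 8774 and 8013 cells remained. They were assigned by marker UMIs to B cells (Cd79a), Cd4+, Cd8a+ and Foxp3+ T cells, T cells with Cd3e alone, and myeloid cells (Lyz2), and 12.3% and 11.5% stayed unassigned, mostly because they held both or neither of Cd79a and Cd3e. The other T cell markers were present in T cells, with Cd3d at 789 to 994 CPM (UMIs per 1000000 UMIs of the lineage) against 19.4 and 19.3 CPM in B cells. Foxp3+ cells held Il2ra, a regulatory T cell marker, at 184 and 208 CPM, against 10.6 and 12.7 CPM in Cd4+ cells. Myeloid cells numbered 29 and 23 and are given by value only. The libraries shared 25 cell barcodes.

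All 10 genes are protein-coding, and the build of the counts was mm10 per the labels (GRCm38, GENCODE M21 positions). The members called between Foxp3+ and Cd4+ T cells, Acads (ENSMUSG00000029545), Acadl (ENSMUSG00000026003) and Hadh (ENSMUSG00000027984), lie at chr5:115110299-115119346, chr1:66830839-66863277 and chr3:131233419-131272101, all on the minus strand. Acadvl (ENSMUSG00000018574) lies at chr11:70010183-70015411, Acadm (ENSMUSG00000062908) at chr3:153922357-153944632, Echs1 (ENSMUSG00000025465) at chr7:140105710-140116476 and Acat1 (ENSMUSG00000032047) at chr9:53580522-53610382, also on the minus strand. Cpt1a (ENSMUSG00000024900) lies on the plus strand at chr19:3322334-3385733. Hadha (ENSMUSG00000025745, minus strand, chr5:30118304-30155162) and Hadhb (ENSMUSG00000059447, plus strand, chr5:30155248-30184593) are neighbours read in opposite directions, with 85 bases between their starts in GENCODE M21. The exons of Acadvl share 1151 bases with the opposite-strand gene Dvl2, those of Echs1 142 bases with Paox and those of Hadha 75 bases with Garem2. The strand setting of the counting is not given in the sources used here, and the part of these stretches in the counts was not tested.

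The 250 bases before the RefSeq start of Acads, Acadl and Hadh are shown because these 3 genes passed the test between Foxp3+ and Cd4+ T cells, a call that Acadl and Hadh lost without cycling cells and all 3 lost in thinned cells (values given with that comparison), and the stretch between Hadha and Hadhb because the subunits of 1 protein share it. The build is GRCm38.p6, each sequence runs 5′ to 3′ on the strand of the gene (the plus strand for the shared stretch), and capitals mark a GC box (GGGCGG or its complement) or a CCAAT box (CCAAT or its complement).
Acads (chr5:115119347-115119596): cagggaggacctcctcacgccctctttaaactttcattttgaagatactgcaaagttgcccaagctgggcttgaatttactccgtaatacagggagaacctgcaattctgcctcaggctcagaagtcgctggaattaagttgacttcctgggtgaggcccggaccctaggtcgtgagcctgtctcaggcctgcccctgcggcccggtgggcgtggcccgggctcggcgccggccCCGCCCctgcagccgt
Acadl (chr1:66863310-66863559): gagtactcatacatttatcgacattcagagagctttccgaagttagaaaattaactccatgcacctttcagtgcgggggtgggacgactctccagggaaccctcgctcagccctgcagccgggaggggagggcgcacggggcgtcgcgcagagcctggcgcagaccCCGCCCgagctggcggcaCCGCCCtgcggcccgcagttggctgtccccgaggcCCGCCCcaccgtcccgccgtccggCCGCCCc
Hadh (chr3:131272102-131272351): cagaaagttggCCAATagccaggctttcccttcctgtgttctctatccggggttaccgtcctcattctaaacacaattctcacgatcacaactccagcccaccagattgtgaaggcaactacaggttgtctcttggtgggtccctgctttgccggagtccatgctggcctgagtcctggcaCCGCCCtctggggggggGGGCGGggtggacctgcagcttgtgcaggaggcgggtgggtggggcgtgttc
Hadha-Hadhb gap (chr5:30155163-30155247): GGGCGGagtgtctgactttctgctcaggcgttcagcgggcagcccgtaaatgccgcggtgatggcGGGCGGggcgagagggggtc
GC boxes, which bind Sp-family factors, numbered 4 in the Acadl window, 2 in that of Hadh, 1 in that of Acads and 2 in the shared stretch. On both strands, a GC box was found in 7 of the 9 member windows in the RefSeq table, and in 32.7% of all 32851 windows of that length. The Hadha and Hadhb windows, both among the 7, share 228 bases and so are not separate. The 7 windows held 58.8% to 68% G and C, against a median of 52.4% over all windows. A CCAAT box was found in 2 of the 9, Hadh and Cpt1a, against 33.8% of all windows. The E box CACGTG (6.02% of all windows) and TCAAGGTCA, which binds oestrogen-related receptors (0.387% of all windows), were in 0 of the 9.

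All 10 members were detected in every lineage of both libraries. Across the 5 larger lineages, Acadl ranged from 34.8 to 96.4 CPM, Hadh from 20.1 to 73.9 CPM and Acads from 21.9 to 52.5 CPM, and each was highest in Foxp3+ T cells. Acadm, at 23.2 to 34.3 CPM, and Hadha, at 56.8 to 79.3 CPM, varied over a narrower range. Cpt1a, the entry enzyme, was at 6.98 to 16.9 CPM and in 3.93% to 12.7% of cells. Most cells held at least 1 UMI of a member, from 76.9% of B cells without to 90.3% of Cd8a+ cells with butyrate. These shares follow depth: with each cell thinned to 2000 UMIs they were 49.3% and 48.9%. No lineage is known to lack these genes, so none gave their own background. The B cell gene Cd79b gave a UMI in 17.2% and 20.4% of Cd8a+ T cells (median 6745 and 7808 UMIs), at 28.0 and 29.5 CPM, and the T cell gene Trac gave a UMI in 3.42% and 3.61% of B cells (median 4405 and 4615 UMIs). In their own lineages Cd79b was at 1625 and 1795 CPM and Trac, in Cd8a+ T cells, at 467 and 480 CPM. The part of such free RNA in the UMIs of the members was not tested.

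**Figure D1:**
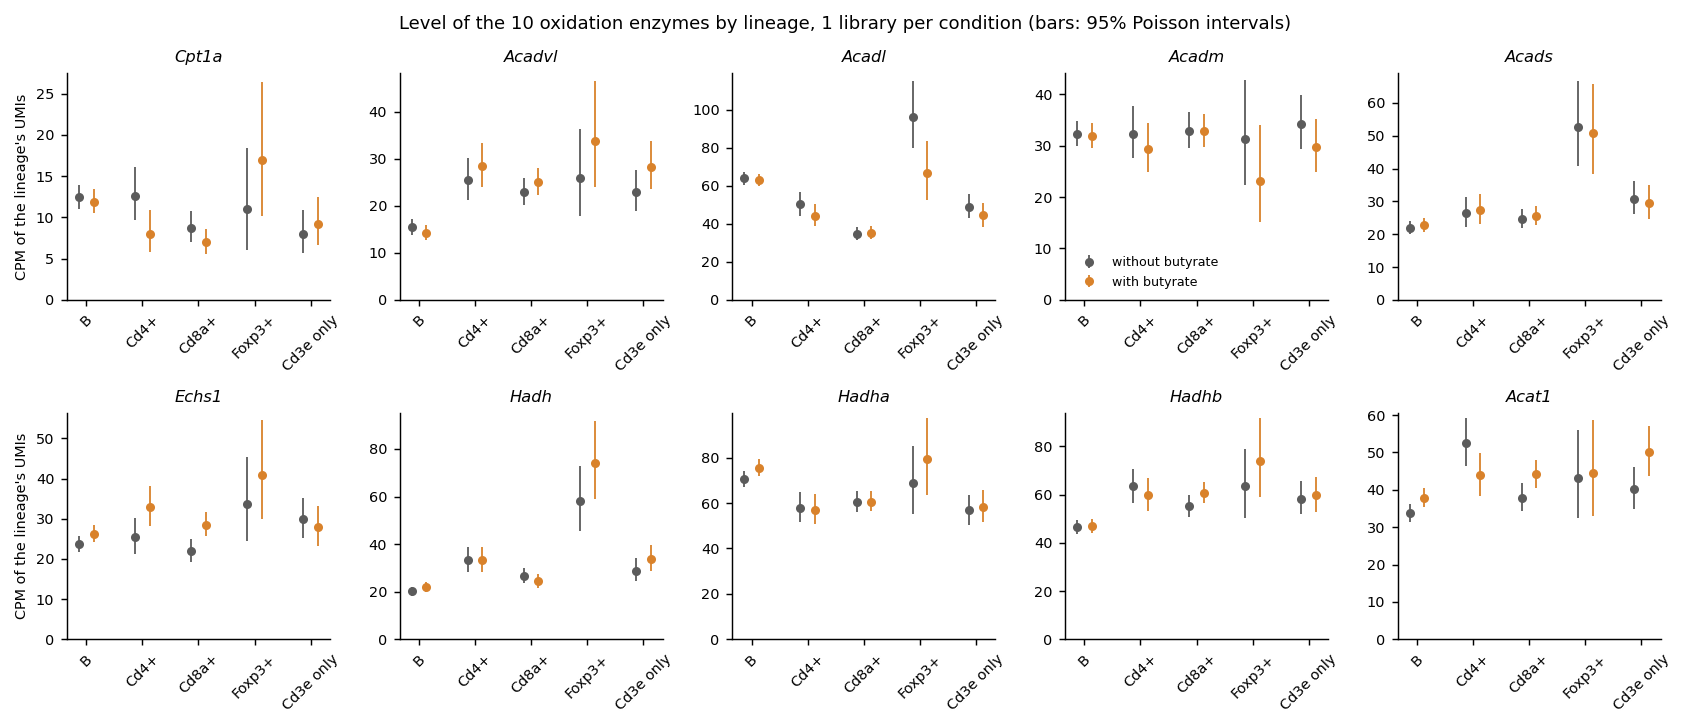
Levels of the 10 oxidation enzymes in 5 lineages, in CPM of the lineage (vertical axis of each panel, from 0), with 1 point per library (grey without, orange with butyrate) and exact 95% Poisson intervals as bars. Acads, Acadl and Hadh stand highest in Foxp3+ T cells in both libraries except that Acadl with butyrate (66.8 CPM) is close to B cells (63.1 CPM), and Acadvl stands lowest in B cells.

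B cells and Cd8a+ T cells, the lineages with the most cells, differed in 8 of the 10 enzymes in edgeR and in 4 with DESeq2. Some were higher in the one and some in the other. With edgeR, 28.7% of all genes tested were higher and 28.6% lower in B cells. DESeq2 called fewer of all genes, 2138 higher and 2406 lower of 13116. Acadl, the long-chain dehydrogenase, and Cpt1a were higher in B cells, and Acadvl, the very-long-chain dehydrogenase, Hadhb, Hadh, Acat1 and Acads were lower. Acadl was at 63.9 CPM in B cells without and 63.1 CPM with butyrate, against 34.8 and 35.2 CPM in Cd8a+ T cells. The log2 fold change was 0.72 ± 0.075 (SE, 2 libraries as blocks, edgeR quasi-likelihood test, adjusted p = 1.71e-07). Acadvl was at 15.4 and 14.2 CPM in B cells against 22.9 and 25.0 CPM in Cd8a+ T cells. It fell by 0.82 ± 0.11 on the log2 scale (edgeR adjusted p = 4.95e-06), and its shared bases with Dvl2 stand as said above. Cpt1a was at 12.5 and 11.9 CPM against 8.75 and 6.98 CPM, a log2 fold change of 0.50 ± 0.16 (edgeR adjusted p = 0.0109).

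The subunits of the trifunctional protein parted. Hadhb was at 46.4 and 47.0 CPM in B cells and at 55.2 and 60.8 CPM in Cd8a+ T cells, a log2 fold change of -0.45 ± 0.063 (edgeR adjusted p = 8.02e-06). Hadha was at 70.6 and 75.6 CPM in B cells and at 60.6 and 60.7 CPM in Cd8a+ T cells, and its change of 0.14 ± 0.056 just passed (edgeR adjusted p = 0.048) and did not pass under 6 of 12 alternatives. On the short-chain route, Hadh (20.1 and 22.0 CPM against 26.6 and 24.3 CPM), Acat1 (33.8 and 37.9 CPM against 37.8 and 44.2 CPM) and Acads (21.9 and 22.7 CPM against 24.7 and 25.5 CPM) were lower in B cells, by log2 fold changes of -0.41 ± 0.11, -0.33 ± 0.083 and -0.30 ± 0.096 (edgeR adjusted p = 0.00306, 0.00246 and 0.012). Echs1 (23.7 and 26.2 CPM against 21.9 and 28.5 CPM) and Acadm (32.3 and 31.9 CPM against 32.8 and 32.8 CPM) did not pass. The fold changes include edgeR's TMM scaling and so are not the plain ratios of the CPM, and each SE is approximate, taken from the fold change and its F statistic.

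In all, 3 of 10 members were higher and 5 lower in B cells, beside the shares of the 10826 genes tested given above. The median log2 fold change was -0.23 over the members and 0.01 over all genes. All 8 had the same direction in each library alone, but these libraries also gave the calls, so this is no separate support. With DESeq2, which also called fewer of all genes, the counts were 1 higher and 3 lower. Acads, Acat1, Cpt1a and Hadha were no longer past the threshold. Of the 58 measured of 71 other genes of the pathway (fatty acid activation and carnitine transfer, other mitochondrial and peroxisomal oxidation, ketone bodies, and regulators), 15 were higher and 18 lower. Among 12 measured genes of activation and carnitine transfer 6 were higher and 2 lower, and among 20 of other mitochondrial oxidation 2 were higher and 8 lower. Among 10 of peroxisomal oxidation 2 were higher and 3 lower, among 5 of ketone bodies 1 and 2, and among 11 regulators 4 and 3. Of all genes tested 28.7% were higher and 28.6% lower, and the lists were not tested as sets. Crat, carnitine acetyltransferase, was at 9.22 and 10.6 CPM in B cells against 0.753 and 0.568 CPM, and Acsl3, a long-chain acyl-CoA synthetase, at 14.6 and 15.97 CPM against 2.07 and 2.92 CPM (log2 fold changes of 3.77 ± 0.31 and 2.46 ± 0.21, edgeR adjusted p = 6.12e-09 and 1.42e-08). Bdh1, 3-hydroxybutyrate dehydrogenase of ketone body use, was at 3.84 and 4.45 CPM in B cells against 16.8 and 18.2 CPM in Cd8a+ T cells (-2.21 ± 0.14, edgeR adjusted p = 1.28e-10).

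**Figure D2:**
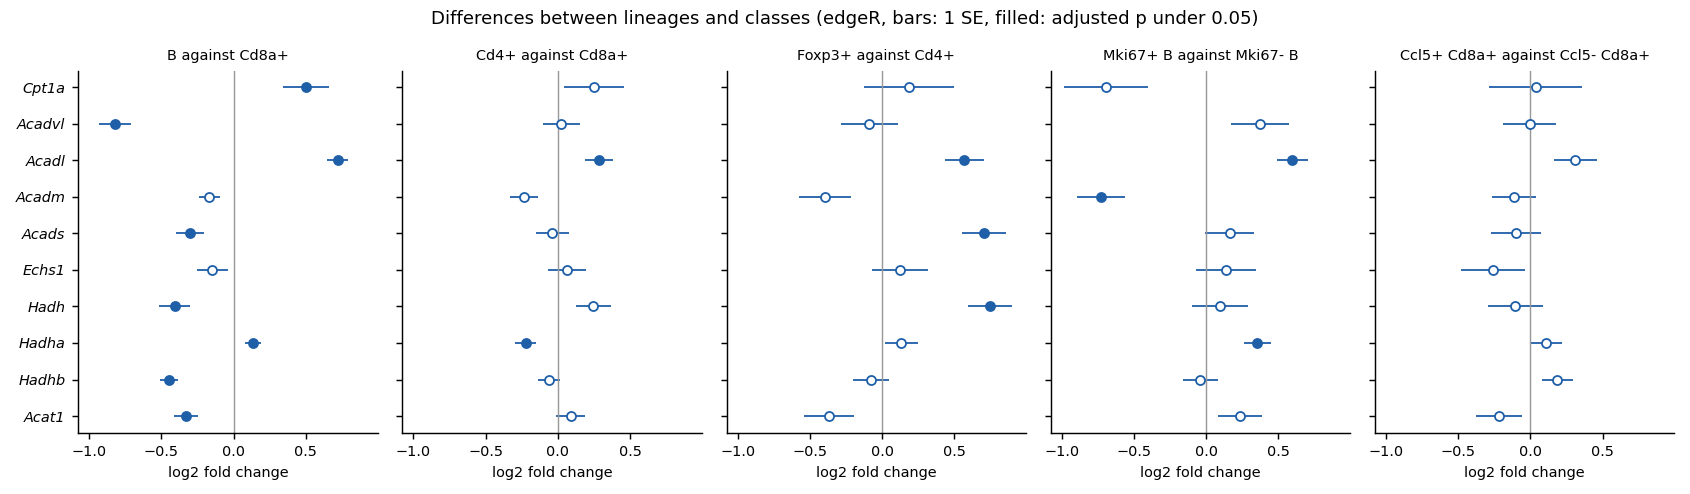
log2 fold changes of the 10 enzymes (horizontal axis, bars are 1 SE) in 5 comparisons fitted with edgeR on UMIs summed per class and library, with filled points where the adjusted p over all genes was under 0.05. B cells differ from Cd8a+ T cells in 8 enzymes (4 with DESeq2), in both directions. With edgeR 28.7% of all genes tested were higher and 28.6% lower, and DESeq2 called fewer of all genes. Ccl5+ differ from Ccl5- Cd8a+ T cells in 0, where 2.33% of all genes tested were higher and 1.22% lower.

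Between Cd4+ and Cd8a+ T cells 2 of the 10 enzymes passed the test, a share near that of all genes tested. Acadl was at 50.2 and 44.2 CPM in Cd4+ and 34.8 and 35.2 CPM in Cd8a+ T cells (log2 fold change 0.28 ± 0.098, edgeR adjusted p = 0.0485), and Hadha at 57.9 and 57.0 CPM against 60.6 and 60.7 CPM (-0.22 ± 0.073, edgeR adjusted p = 0.0377). Both stood close to the threshold: Acadl no longer passed under 9 of 12 alternatives and Hadha under 5, DESeq2 among them in each case. These 2 are 1 member higher and 1 lower of 10, against 11% and 10.3% of all genes tested. The other 8 members lay between -0.24 and 0.25 on the log2 scale. Of the 58 other pathway genes measured 4 were higher and 5 lower in Cd4+ T cells, beside the same shares of all genes. Slc16a6, a ketone body transporter, was lower, at 5.52 and 7.83 CPM against 16.8 and 18.2 CPM (log2 fold change -1.53 ± 0.18, edgeR adjusted p = 4.64e-06). Acsf2 and Acss1, of fatty acid activation and carnitine transfer, were lower by -0.97 ± 0.22 and -0.57 ± 0.17 (edgeR adjusted p = 0.00327 and 0.0228). In thinned cells Acsf2 and Acss1 lost their calls. Ech1, a dienoyl-CoA isomerase, was at 59.7 and 63.0 CPM against 43.4 and 44.3 CPM (log2 fold change 0.34 ± 0.079, edgeR adjusted p = 0.00459). With DESeq2, which also called fewer of all genes, Ech1 and Acss1 lost their calls. Pparg, the nuclear receptor that senses fatty acids, had 5 and 7 UMIs in Cd4+ and 0 and 0 in Cd8a+ T cells.

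Foxp3+ T cells, the regulatory class, held more Acads and Hadh, both of the butyrate route, and more Acadl than Cd4+ T cells. Acads was at 52.5 CPM without and 50.8 CPM with butyrate, against 26.6 and 27.4 CPM in Cd4+ T cells (log2 fold change 0.71 ± 0.15, edgeR adjusted p = 0.00243). A UMI of Acads was found in 26.4% and 28.2% of Foxp3+ cells and in 12.1% and 16.1% of Cd4+ cells. Hadh was at 58.0 and 73.9 CPM against 33.3 and 33.3 CPM (0.75 ± 0.15, edgeR adjusted p = 0.00164). Acadl was at 96.4 and 66.8 CPM against 50.2 and 44.2 CPM (0.57 ± 0.14, edgeR adjusted p = 0.00505). For all 3 genes both Foxp3+ values lie above both Cd4+ values, but the test that picked these genes used the same values. This is no separate support, and the share of all genes that do so was not counted. The other enzymes of the butyrate route did not pass: Echs1 was at 33.7 and 41.0 CPM against 25.4 and 32.9 CPM, and Acat1 at 43.1 and 44.5 CPM against 52.6 and 43.9 CPM. In all, 3 of 10 members were higher and 0 lower, against 12.9% and 12.3% of all genes tested. The median log2 fold change was 0.13 over the members and -0.06 over all genes.

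Cells with a Mki67 UMI, a proliferation gene, moved with this comparison. They were 26 of 159 Foxp3+ cells without and 14 of 142 with butyrate but gave 46.5% and 33.8% of that lineage's UMIs, whereas in Cd4+ T cells they gave 7.82% and 6.45%. The 5 cycling markers Mki67, Top2a, Stmn1, Birc5 and Pclaf summed to 1795 and 1098 CPM in Foxp3+ and to 321 and 277 CPM in Cd4+ T cells, with 0 of the 5 at 0 UMIs. In Foxp3+ cells without a Mki67 UMI, Acads was at 52.8 and 47.1 CPM, against 23.1 and 26.8 CPM in the matching Cd4+ cells. Hadh in the same cells was at 27.9 and 51.2 CPM against 31.0 and 31.4 CPM, and Acadl at 64.5 and 51.2 CPM against 47.4 and 38.9 CPM. With all Mki67+ cells left out of every sum, Acads kept a log2 fold change of 0.82 ± 0.20 (edgeR adjusted p = 0.00513), while Acadl was at 0.24 ± 0.18 and Hadh at 0.18 ± 0.23, neither past the threshold (edgeR adjusted p = 0.489 and 0.725). Without cells of over 20000 UMIs, Acads was at 0.74 ± 0.19 (edgeR adjusted p = 0.0073), Acadl at 0.35 ± 0.16 and Hadh at 0.40 ± 0.23 (edgeR adjusted p = 0.176 and 0.305). These omissions were chosen after the data were seen. With each cell thinned to 2000 UMIs none of the 3 passed: Acads was at 0.91 ± 0.35, Acadl at 0.31 ± 0.29 and Hadh at 0.14 ± 0.38 (edgeR adjusted p = 0.108, 0.661 and 0.915). Calls over all genes fell too, from 1399 higher and 1330 lower of 10826 to 411 and 349 of 9264 in thinned cells. They were 642 and 516 of 10585 without Mki67+ cells and 841 and 641 of 10732 without cells of over 20000 UMIs. The share of thinned Foxp3+ cells with a UMI was 8.23% and 8.63% for Acads, against 3.32% and 4.15% of Cd4+ cells. For Acadl it was 13.3% and 7.19% against 8.13% and 7.13%, and for Hadh 2.53% and 10.1% against 5.73% and 4.54%, so that Hadh without butyrate was lower in Foxp3+ cells.

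**Figure D3:**
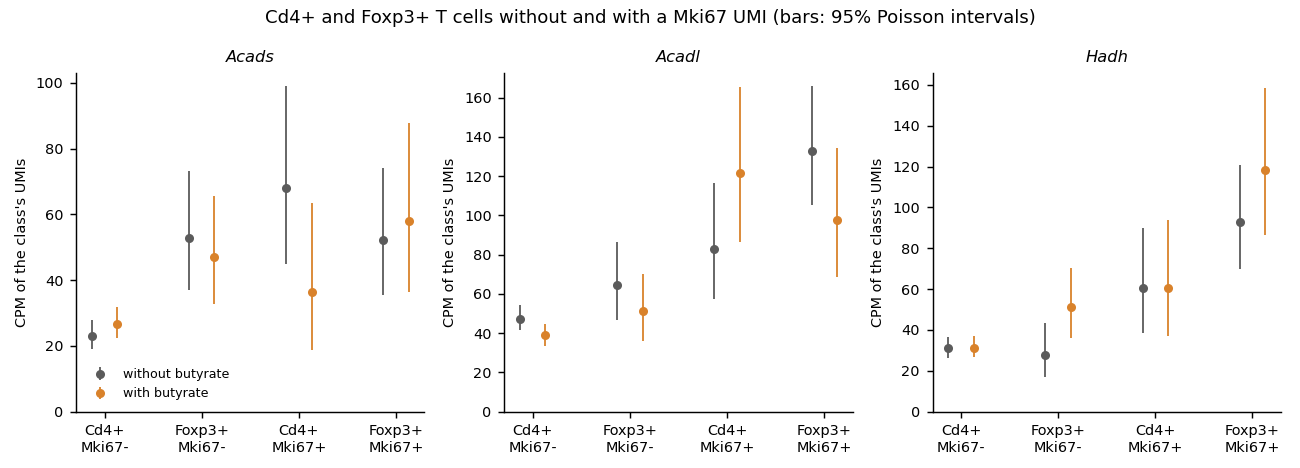
Acads, Acadl and Hadh in Cd4+ and Foxp3+ T cells without (Mki67-) and with (Mki67+) a Mki67 UMI, in CPM of the class (vertical axis, from 0), with 1 point per library (grey without, orange with butyrate) and exact 95% Poisson intervals. In cells without Mki67, Acads is higher in Foxp3+ cells in both libraries, while Hadh at 27.9 CPM without butyrate is not above Cd4+ cells.

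Of the 58 other pathway genes measured, 4 were higher and 4 lower in Foxp3+ T cells, against 12.9% and 12.3% of all genes tested. Etfb, a subunit of the electron transfer flavoprotein that accepts electrons from the acyl-CoA dehydrogenases, was at 117 and 104 CPM against 46.7 and 48.9 CPM in Cd4+ T cells (log2 fold change 0.99 ± 0.13, edgeR adjusted p = 1.65e-05). Slc16a6, a ketone body transporter, was at 18.0 and 18.7 CPM against 5.52 and 7.83 CPM (1.23 ± 0.28, edgeR adjusted p = 0.00327). Scp2, the peroxisomal thiolase and sterol carrier, was at 153 and 168 CPM against 229 and 226 CPM (-0.74 ± 0.097, edgeR adjusted p = 2.04e-05). Without Mki67+ cells these 3 kept their calls, at 0.54 for Etfb, 1.21 for Slc16a6 and -0.57 for Scp2 (thinned, Etfb was at 0.42 and lost its call), while Acad9, Ivd and Pcca, also called over all cells, did not.

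Cycling B cells, those with a Mki67 UMI, numbered 123 without and 63 with butyrate, and 3 members passed the test against the other B cells, though each lost its call under at least 1 of 2 alternatives on depth. Acadl was at 97.8 and 88.7 CPM against 60.2 and 61.9 CPM (log2 fold change 0.60 ± 0.11, edgeR adjusted p = 0.000118), and Hadha at 81.2 and 117 CPM against 69.5 and 73.8 CPM (0.35 ± 0.093, edgeR adjusted p = 0.00432). Acadm, the medium-chain dehydrogenase, was at 19.7 and 22.2 CPM against 33.7 and 32.4 CPM (-0.73 ± 0.17, edgeR adjusted p = 0.00139). The values of the classes do not overlap for these 3 genes, but the test that picked them used the same values. This is no separate support, and the share of all genes without overlap was not counted. These 3 are 2 members higher and 1 lower of 10, against 19.7% and 23.2% of 11144 genes tested. The median of all genes lay at -0.16 on the log2 scale. Acads (24.6 and 26.4 CPM against 21.6 and 22.6 CPM), Hadh (24.6 and 18.0 CPM against 19.6 and 22.2 CPM) and Echs1 (20.2 and 42.3 CPM against 24.1 and 25.5 CPM) did not pass.

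Cycling B cells also differed in depth and kind: their median was 16482 and 10108 UMIs against 4366 and 4605 UMIs, and the plasma cell markers Jchain, Sdc1 and Tnfrsf17 summed to 5207 and 3658 CPM against 417 and 91.3 CPM, with 0 of the 3 at 0 UMIs. With each cell thinned to 2000 UMIs Hadha kept its call at 0.77 ± 0.24, while Acadl was at 0.55 ± 0.29 and Acadm at -0.20 ± 0.44 (edgeR adjusted p = 0.0199, 0.252 and 0.853). Without cells of over 20000 UMIs Acadl kept its call at 0.56 ± 0.15, while Hadha was at 0.37 ± 0.15 and Acadm at -0.63 ± 0.26 (edgeR adjusted p = 0.00749, 0.0985 and 0.112). Calls over all genes fell too, from 2191 higher and 2589 lower of 11144 to 618 and 410 of 9427 in thinned cells. They were 959 and 590 of 11122 without the large cells. The part of the plasma cell markers in the differences was not tested. Of the 58 other pathway genes measured 7 were higher and 10 lower, against 19.7% and 23.2% of all genes tested. Oxct1, which activates acetoacetate for oxidation, was at 77.2 and 82.4 CPM against 25.9 and 25.9 CPM (log2 fold change 1.59 ± 0.12, edgeR adjusted p = 2.34e-09), and Etfb at 104 and 134 CPM against 49.9 and 55.4 CPM (1.11 ± 0.10, edgeR adjusted p = 2.31e-08). In thinned cells Oxct1 and Etfb both lost their calls. Over the alternatives their log2 fold changes were as low as 0.51 and 0.55.

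Cd8a+ T cells with at least 2 UMIs of Ccl5, a chemokine of memory CD8 T cells, did not differ detectably from the other Cd8a+ T cells in these enzymes. They numbered 160 and 167, and 0 of 10 members passed in edgeR (0 at an unadjusted p under 0.05, 0 with DESeq2), against 2.33% of all genes higher and 1.22% lower. The log2 fold changes ran from -0.26 for Echs1 (15.9 and 26.4 CPM against 22.9 and 28.8 CPM) to 0.31 for Acadl (39.7 and 43.2 CPM against 34.0 and 33.9 CPM). Of the other pathway genes only Scp2 passed, at 154 and 143 CPM against 206 and 197 CPM (-0.42 ± 0.096, edgeR adjusted p = 0.0119). It lost its call in thinned cells and with at least 2 UMIs of Cd79a or Cd3e. The Ccl5+ cells were deeper, with medians of 9029 and 10243 UMIs against 6582 and 7659 UMIs.

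Levels with and without butyrate could be compared only between 1 library and 1 library, so no test was made and the intervals cover counting error alone. The summed level of the 10 members, the long-chain enzymes included, was close in both libraries over all cells of each lineage. In B cells it was 341 CPM without and 353 CPM with butyrate, a log2 ratio of 0.05 (95% interval 0.00 to 0.10). In the same B cells the plasma cell markers went from 894 to 246 CPM and the cycling markers from 270 to 139 CPM, and in B cells without a Mki67 UMI the members' sum was 337 and 348 CPM (0.05). In Cd8a+ T cells the sum was 326 and 344 CPM, a log2 ratio of 0.08 (0.01 to 0.14). In Cd4+ T cells it was 380 and 364 CPM (-0.06, from -0.15 to 0.03), in Cd3e-only T cells 359 and 371 CPM (0.05, from -0.05 to 0.14) and in Foxp3+ T cells 485 and 504 CPM (0.06, from -0.11 to 0.22).

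No member came past a log2 ratio of 0.5 in either direction, on log2(CPM + 10), in any of these 5 lineages. Over all genes with at least 50 UMIs, 0.0669% were past it upward and 0.621% downward in B cells, 0.131% and 0.944% in Cd4+, 0.0754% and 0.377% in Cd8a+, 2.81% and 3.83% in Foxp3+ and 0.49% and 0.747% in Cd3e-only T cells, so few genes of any kind were. Of 49 member and lineage pairs with at least 50 UMIs (Cpt1a in Foxp3+ T cells had fewer), the counting interval of the plain ratio lay above 0 in 5 and below 0 in 3. Over all 41418 gene and lineage pairs it lay above 0 in 9.72% and below 0 in 7.84%, so the members' counts were near those of all genes. Echs1, the short-chain hydratase, was higher with butyrate in Cd8a+ T cells, at 28.5 against 21.9 CPM (log2 ratio 0.38, 0.13 to 0.62), and in Cd4+ T cells, at 32.9 against 25.4 CPM (0.37, 0.03 to 0.71). Acat1, the thiolase of the short-chain route, was higher in B, Cd8a+ and Cd3e-only T cells and lower in Cd4+ T cells, at 43.9 against 52.6 CPM (-0.26, from -0.53 to -0.00). Cpt1a in Cd4+ T cells was at 8.03 against 12.6 CPM (-0.65, from -1.25 to -0.06). Acadl in Foxp3+ T cells was at 66.8 against 96.4 CPM (-0.53, from -0.96 to -0.10). In that lineage the 5 cycling markers also went from 1795 to 1098 CPM, and the part of this in the Acadl ratio was not tested.

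For Acads, the first enzyme of butyrate oxidation, the counting interval included 0 in each of the 5 lineages. Its log2 ratio was 0.05 (-0.13 to 0.23) in B cells, 0.05 (-0.19 to 0.29) in Cd8a+, 0.04 (-0.31 to 0.40) in Cd4+, -0.07 (-0.42 to 0.28) in Cd3e-only and -0.05 (-0.58 to 0.48) in Foxp3+ T cells. In cycling B cells the sum of the members was 376 CPM without and 444 CPM with butyrate (0.24, 0.07 to 0.41). There Echs1 was the single member past 0.5, at 20.2 and 42.3 CPM, where 7.85% of genes were past it upward and 4.41% downward. The plasma cell markers in these cells went from 5207 to 3658 CPM, and the part of this in the ratio was not tested. In the 29 and 23 myeloid cells the members summed to 502 and 441 CPM (-0.18, from -0.59 to 0.22), each member with 1 to 20 UMIs. Of the other pathway genes, of which 17 (Foxp3+) to 55 (B cells) had at least 50 UMIs, Pcca in Cd4+ T cells (14.2 and 24.3 CPM), a subunit of propionyl-CoA carboxylase, and Acaa1a in Foxp3+ T cells (22.0 and 39.2 CPM), a peroxisomal thiolase, were the only ones past 0.5 in the 5 lineages.

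**Figure D4:**
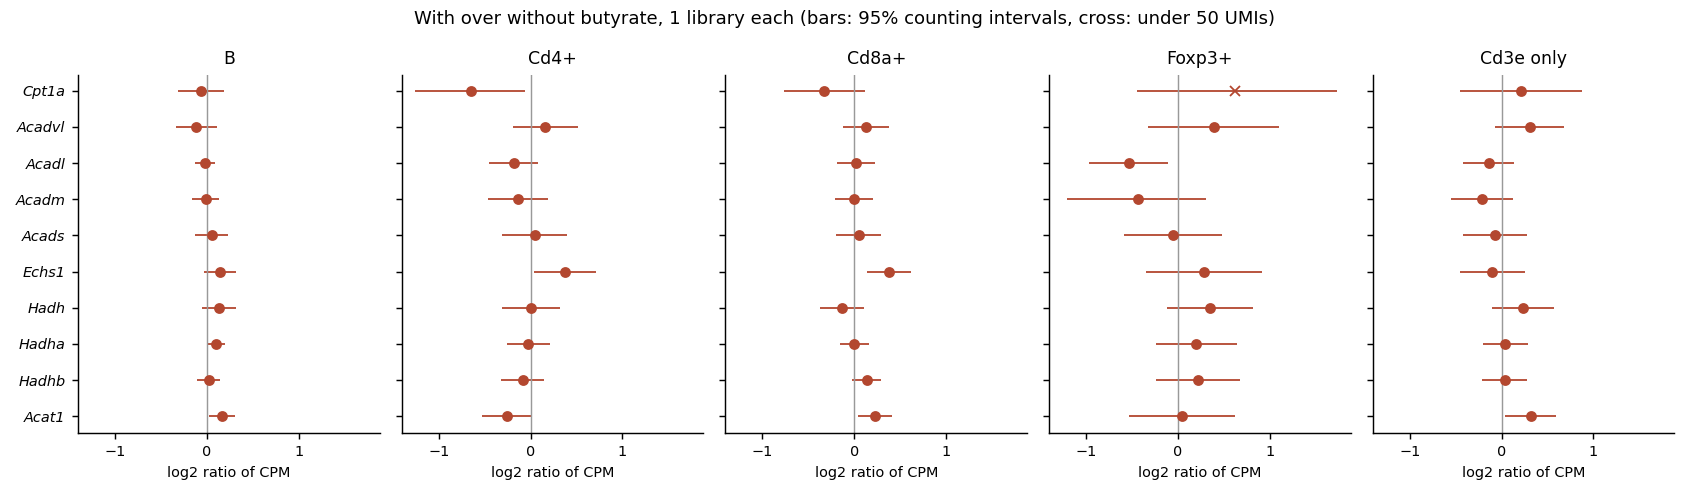
log2 ratio of CPM with over without butyrate for the 10 enzymes in 5 lineages (horizontal axis, 1 library per condition), with exact 95% counting intervals as bars and a cross where the sums together held under 50 UMIs. Most intervals include 0, and Acat1 lies above 0 in B, Cd8a+ and Cd3e-only cells and below 0 in Cd4+ T cells.

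The members did not vary as 1 block. Over the 10 sums of 5 lineages in 2 libraries, which share 2 libraries and differ in depth, Pearson's r of log2(CPM + 10) was 0.96 between Acads and Hadh, but -0.08 between Hadha and Hadhb, whose starts lie side by side as printed above. Acadm had a negative r with all 9 others, from -0.75 with Hadh to -0.28 with Acat1. These r describe the sums and carry no test. The genes most like Acads over 12 sums, myeloid cells included, were Cish, Fam89a and Il1rl1 (r = 0.98, 0.96 and 0.96, among 11774 genes), those most like Hadh were Suox, Hacd3 and Rasa1 (0.98, 0.97 and 0.97), and those most like Acadl were Srgn, St13 and Tpm4 (0.96, 0.96 and 0.95). Without the myeloid sums 0 of these 9 stayed among the 3 most alike.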

How the data were processed

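Single-cell 3′ RNA counts of 2 libraries were analysed, each of cells pooled from 4 mice. The authors deposited UMI counts per gene and cell, made with Cell Ranger 6.0.1 on mm10 per the labels. Cells with under 200 genes or over 10% mitochondrial UMIs were left out (186 without and 327 with butyrate), as were likely doublets, ranked by Scrublet score (scanpy 1.11.5) and taken at 0.8% per 1000 cells (721 and 592). Lineages were assigned by Cd79a, Cd3e, Cd4, Cd8a, Foxp3 and Lyz2 (at least 3 UMIs). UMIs were summed per lineage and library, and sums of under 30 cells were not fitted. Lineages were compared with edgeR 4.0.16 (R 4.3.3, quasi-likelihood test, TMM, low-count filter), with the library as a block and Benjamini-Hochberg adjustment over all genes, at 0.05. The libraries are pools that differ in treatment, so the residual spread (4 degrees of freedom in the fit of 10 sums, 6 in the fit of 14) includes any lineage-dependent treatment effect. With 1 library per condition butyrate was compared without a test, with exact 95% intervals (Poisson for CPM, Clopper-Pearson for shares, conditional binomial for ratios) that cover counting error only, and a fold call at 0.5 on log2(CPM + 10) where the sums together held 50 or more UMIs. 3′ counts do not scale with transcript length, and levels were not ranked between genes. On simulated counts for B against Cd8a+ cells (10355 genes), 100% of log2 changes of 1 and 48% of 0.5 were recovered. For Mki67+ against Mki67- B cells (10463 genes) 94% and 23% were. The changed genes were drawn above a set level, and Cpt1a lay under it. The simulated spread was wider than that fitted to the data, and no library effect was put in. The other comparisons were not simulated, so these rates do not cover them. Named pathway genes were drawn from the 3 called members of the list with the largest change in each direction per comparison. Not all of these are named in the text. Likeness was Pearson's r of log2(CPM + 10). Members and gene lists were chosen with earlier results of these data known. Alternatives were DESeq2 1.42.0, RLE scaling, other filters and marker rules, thinning to 2000 UMIs per cell and omission of cycling or large cells.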

Additional observations from a re-analysis of the deposited data

Results flagged for a closer look

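The log2 ratio of Acat1 with against without butyrate lay above 0 in B cells (0.17), Cd8a+ T cells (0.23) and Cd3e-only T cells (0.32) and below 0 in Cd4+ T cells (-0.26), each with a counting interval that leaves out 0. The opposite directions drew attention, but with 1 library per condition the difference between lineages was not tested.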

How the results depend on the processing

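No fold change of a called member reversed under the alternatives run. Among the other pathway genes named, 2 reversed in cells thinned to 2000 UMIs: for Foxp3+ against Cd4+ T cells Acad9 was at -0.18 and Ivd at 0.065 on the log2 scale. Of B cells against Cd8a+ T cells, DESeq2 called 1 member higher and 3 lower, and fewer of all genes than edgeR. Of Cd4+ against Cd8a+ T cells, 0 members were higher with RLE scaling, DESeq2, no doublet removal, at most 5% mitochondrial UMIs, at least 2 marker UMIs, 1 UMI of the other lineage allowed, thinned cells, totals without ribosomal, mitochondrial and immunoglobulin genes, or without Mki67+ cells, and 0 were lower with DESeq2, no doublet removal, 5% mitochondrial UMIs or thinned cells. Of Foxp3+ against Cd4+ T cells, 0 were higher when thinned (Acads 0.91, Acadl 0.31, Hadh 0.14) and 1 without Mki67+ cells or without cells of over 20000 UMIs. Each setting named for Foxp3+ against Cd4+ T cells also called fewer of all genes. For Cd4+ against Cd8a+ T cells this did not hold throughout, with 1195 genes higher and 1113 lower in the main fit. RLE scaling called 1159 and 1160, 1 UMI of the other lineage allowed 1280 and 1192, and the fit without Mki67+ cells 1304 and 1174. The other settings named for that comparison called fewer. Of cycling B cells, 1 was higher with no low-count filter, thinned or without large cells, and 2 were lower with no filter or no doublet removal and 0 when thinned or without large cells.

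With butyrate, 1 member was past the fold downward with a pseudocount of 1 in Cd4+ and Foxp3+ T cells, and in Foxp3+ T cells with at least 2 marker UMIs. In Foxp3+ T cells 1 was past it upward without Mki67+ cells, without large cells or with the mean of CPM per cell, and the summed ratio was 0.24 thinned, 0.24 without Mki67+ cells and 0.30 without large cells. In cycling B cells 0 were past it upward when thinned, and 2 with a pseudocount of 1 or the mean of CPM per cell, which also put 1 downward. The share of all genes past the fold was not counted under these alternatives, so these counts do not set the members apart from other genes. The omissions of Mki67+ and large cells were chosen after seeing the data, and the cause of these changes was not tested. Of 189 fold changes of called members 154 kept their call and 0 reversed, and of 65 summed ratios 62 moved by less than counting error. Myeloid cells were not fitted, having under 30 cells per library. Among the 5 fitted lineages Cpt1a in Foxp3+ T cells had under 50 UMIs over both sums, as had all 10 members in myeloid cells.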
